A study of Mus musculus with 12 samples.

Results

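The regions described here are 620 open chromatin peaks at gene starts of mouse hepatocytes that were higher in fasted than in fed mice. They were chosen from 18534 peaks whose listed distance to the nearest transcription start was at most 1000 bp, out of 52530 peaks in all. A peak was taken when log2((mean of 3 fasted libraries + 1)/(mean of 3 fed libraries + 1)), called the log2 ratio below, was at least 0.5 both in fresh and in frozen liver. The rule took 3.35% of the gene start peaks. Since these ratios chose the peaks, every fasted against fed value below is a description without a test. The words gained and lost stand for a ratio of at least 0.5, upward or downward, in both preparations.

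The assay was ATAC-seq, where a transposase inserts sequencing adapters into open DNA, so that more reads mean DNA that is easier to reach. The nuclei came from female HEP-INTACT mice, whose hepatocyte nuclei carry a genetic tag by which they are pulled from liver tissue on beads. The labels give neither the ages of the mice nor the driver of the tag, and all 4 groups carry it. Fasted mice went without food for 16 h from ZT12, the onset of their active phase, and fed mice ate freely and were killed at the same hour. Each of 6 mice, 3 per feeding state, gave 1 fresh and 1 frozen liver library, which makes 12 libraries in 4 groups of 3. In the file the libraries of a group carry the letters A to C, and values below are given in that order. Levels are reads per 200 bp window after the authors' scaling, called normalized reads.

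In a fasting liver, insulin falls while glucagon and glucocorticoids rise. Glucagon raises cAMP, which activates the factor CREB at the DNA element named CRE; glucocorticoids act through the glucocorticoid receptor, and fatty acids released from fat tissue bind the receptor PPARA. These factors turn on genes of fatty acid oxidation, ketone and glucose production, and hormones that the liver sends out, such as FGF21. The DNA around the start of an expressed gene is usually open already, and much of the regulated change in accessibility lies at distant enhancers.

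Promoter sequence could be set beside the data for 208 of the 620 peaks, which overlapped a RefSeq promoter window (250 bases before to 50 after a gene start, GRCm38.p6, the assembly also called mm10) by at least 100 bp. They covered 200 windows. For 21 of these peaks the window belonged to another gene than the nearest one listed, as for the peak listed under the noncoding gene 5430402O13Rik, which lay on the promoter of Cycs, the gene of cytochrome c. The 250 bases before the start are shown for 8 genes, read 5′ to 3′ on the gene's strand. Fgf21, Acot1, Plin4 and Cdkn1a are among the highest ratios and show how different the sequences under strong gains were; Dusp8, Heca, Maff and Cycs carry the full CRE. Capitals mark the full CRE TGACGTCA, the TATA box TATAAA and the CCAAT box, read as ATTGG on the other strand.
Fgf21 (chr7:45615491-45615740, minus strand): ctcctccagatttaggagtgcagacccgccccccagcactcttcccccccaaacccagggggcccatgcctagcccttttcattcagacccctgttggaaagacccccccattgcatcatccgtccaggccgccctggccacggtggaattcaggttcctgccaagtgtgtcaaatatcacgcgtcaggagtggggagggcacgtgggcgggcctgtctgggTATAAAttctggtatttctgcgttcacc
Acot1 (chr12:84009252-84009501, plus strand): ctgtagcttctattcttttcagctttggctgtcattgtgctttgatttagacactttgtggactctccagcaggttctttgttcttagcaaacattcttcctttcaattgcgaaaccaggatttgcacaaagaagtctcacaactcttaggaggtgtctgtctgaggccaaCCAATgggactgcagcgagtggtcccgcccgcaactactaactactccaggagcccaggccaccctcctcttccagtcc
Plin4 (chr17:56109783-56110032, minus strand): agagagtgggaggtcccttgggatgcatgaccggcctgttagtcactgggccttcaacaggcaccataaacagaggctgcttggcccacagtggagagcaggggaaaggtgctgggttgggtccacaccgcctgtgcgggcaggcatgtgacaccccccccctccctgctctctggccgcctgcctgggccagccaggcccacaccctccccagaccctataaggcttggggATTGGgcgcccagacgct
Cdkn1a (chr17:29093519-29093768, plus strand): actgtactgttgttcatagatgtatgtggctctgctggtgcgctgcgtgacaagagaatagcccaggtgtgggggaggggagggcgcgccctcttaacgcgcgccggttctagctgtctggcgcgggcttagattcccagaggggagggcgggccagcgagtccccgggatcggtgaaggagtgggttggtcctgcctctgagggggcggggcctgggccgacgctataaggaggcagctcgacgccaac
Dusp8 (chr7:142095285-142095534, minus strand): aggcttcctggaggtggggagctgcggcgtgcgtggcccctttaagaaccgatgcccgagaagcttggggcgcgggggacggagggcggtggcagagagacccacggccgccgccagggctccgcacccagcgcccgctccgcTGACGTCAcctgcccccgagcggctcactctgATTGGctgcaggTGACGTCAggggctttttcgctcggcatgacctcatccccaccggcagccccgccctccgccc
Heca (chr10:17948068-17948317, minus strand): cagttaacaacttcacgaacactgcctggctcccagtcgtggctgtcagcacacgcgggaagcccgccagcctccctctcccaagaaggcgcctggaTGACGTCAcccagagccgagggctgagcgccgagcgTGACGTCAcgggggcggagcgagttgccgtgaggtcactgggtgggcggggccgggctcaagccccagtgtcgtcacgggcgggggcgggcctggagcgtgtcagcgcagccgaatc
Maff (chr15:79347270-79347519, plus strand): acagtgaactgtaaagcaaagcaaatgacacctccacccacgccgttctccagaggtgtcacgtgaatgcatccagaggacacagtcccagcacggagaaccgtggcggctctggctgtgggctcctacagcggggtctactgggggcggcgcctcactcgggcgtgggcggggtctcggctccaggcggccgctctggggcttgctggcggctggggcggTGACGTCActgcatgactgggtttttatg
Cycs (chr6:50566570-50566819, minus strand): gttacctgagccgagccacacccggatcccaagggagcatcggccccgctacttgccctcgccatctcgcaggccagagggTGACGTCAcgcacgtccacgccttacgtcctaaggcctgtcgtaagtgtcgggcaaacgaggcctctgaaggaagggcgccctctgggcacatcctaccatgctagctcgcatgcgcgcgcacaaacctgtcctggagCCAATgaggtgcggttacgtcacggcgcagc
Fgf21 has a TATA box at -28, Acot1 a CCAAT box at -79 and Plin4 one at -18, counted from the first base after the window's 250 upstream bases as +1. The Cdkn1a window holds none of these 3 motifs. The full CRE stands at -107 and -63 in Dusp8, at -153 and -117 in Heca, at -29 in Maff and at -169 in Cycs.

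Over the whole 300 bp windows, searched on both strands, the full CRE was in 5% (10 of 200) of the windows under gained peaks and in 3.53% of the 8466 windows under any gene start peak. It stood there 2 or more times in 4 of the 200 windows, those of Dusp8, Heca, Pak1 and Chpf, and in 9 of all 8466. The short form TGACG, which the full CRE contains, was in 30.5% (61 of 200) against 33.9%. The CCAAT box was in 25% (50 of 200) against 41.2%, the ETS core CCGGAAG in 8% (16 of 200) against 20.2%, and the NRF1 element GCGCATGC in 2% (4 of 200) against 6.25%. The AP-1 element TGANTCA was in 7% (14 of 200) against 4.28%, the TATA box in 9% (18 of 200) against 6.25%, and the GC box GGGCGGGG in 42% (84 of 200) against 38.6%. The FOXO core TGTTTAC was in 3% (6 of 200) against 2.67%, the E-box CACGTG in 10.5% (21 of 200) against 11.4%, and TTCNNNGAA, the STAT5 element, in 5% (10 of 200) against 6.57%. A full pair of AGGTCA repeats 1 base apart, the textbook PPARA site, was in 0 of the 200 windows and in 3 of all windows. The glucocorticoid receptor palindrome, GNACA and TGTNC 3 bases apart, was in 1% (2 of 200, at Map3k6 and A230028O05Rik) against 0.25%. The C/EBP palindrome TTGCGCAA was in 1% (2 of 200, at Abcc5 and 4833411C07Rik) against 0.38%. The median GC content was 66.2% in the gained windows and 62.3% in all. These shares were not tested, and the windows cover only the gained peaks close to a RefSeq start.

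The gained peaks were weak peaks. Their mean over the 12 libraries had a median of 78.3 normalized reads, against 167 over all gene start peaks, and only 60 of the 620 reached that second value. The median level went from 57.0 normalized reads in fresh fed to 98.0 in fresh fasted liver, and from 57.3 in frozen fed to 104 in frozen fasted liver. Over all gene start peaks the medians were 154 normalized reads for fresh fed, 167 for fresh fasted, 161 for frozen fed and 176 for frozen fasted liver, so that the gained peaks stayed below the typical gene start after the fast as well. Together the 620 peaks took 1.22, 1.14 and 1.35% of the reads at gene starts in fresh fed and 1.93, 1.95 and 1.97% in fresh fasted libraries. In frozen liver they took 1.21, 1.15 and 1.32% in fed and 2.01, 2.01 and 2.06% in fasted libraries. The 3 fasted libraries lay close together in each preparation, and the fed libraries differed more, with the letter C highest and the letter B lowest in both preparations.

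**Figure D1:**
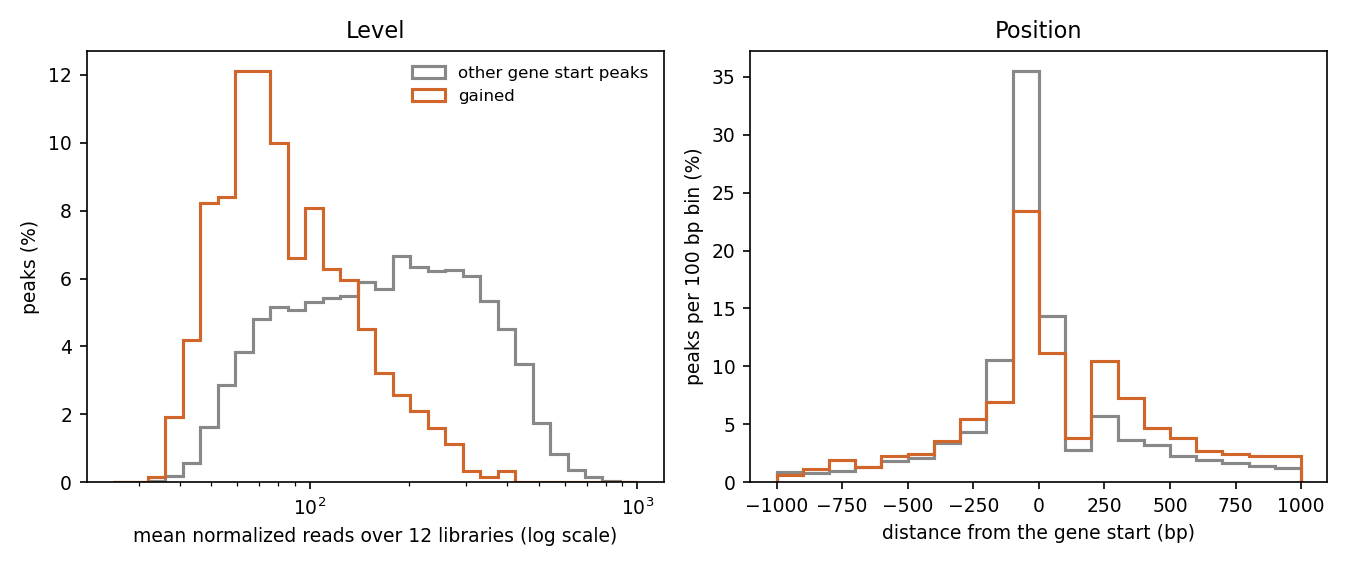
Share of peaks (%) by mean normalized reads over 12 libraries (left, log scale) and by distance from the gene start in bins of 100 bp (right), for the 620 gained peaks (orange) and the other gene start peaks (grey). The gained peaks have a median level of 78.3 against 167 normalized reads over all gene start peaks, and fewer of them sit within 100 bp of the start.

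The median log2 ratio of the gained peaks was 0.67 in fresh and 0.74 in frozen liver, beside 0.11 and 0.14 over all gene start peaks. With every library scaled to an equal median over gene start peaks, which takes out that common shift, 313 of the 620 still met the rule. All 620 kept ratios above 0 in both preparations, the smallest being 0.37. This follows from the threshold of 0.5, since the shift taken out is small beside it. Without the lowest 25% of peaks by level 340 met the rule. Most gains were modest: 71 of the 620 had a ratio of at least 1 in both preparations, 17 of at least 1.5 and 5 of at least 2. The ratio was larger in frozen liver for 399 of the 620 (64.4%), beside 54.0% of all gene start peaks. A further 321 gene start peaks reached 0.5 in fresh but not in frozen liver and 743 in frozen but not in fresh liver, while 347 were lost in both. All 6 fasted libraries lay above all 6 fed libraries at 352 of the 620, a pattern that 5% of all gene start peaks showed. Within fresh liver the 3 fasted lay above the 3 fed libraries at 599, and within frozen liver at 576, beside 31.6% of all gene start peaks in each case; these counts follow from the choice of the peaks. The authors' deposited table lists an adjusted p below 0.05 with higher fasted values for 548 of the 620 in fresh liver, 538 in frozen liver and 499 in both, beside 9.58%, 13.3% and 5.51% of all gene start peaks. These are the same libraries that chose the 620.

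**Figure D2:**
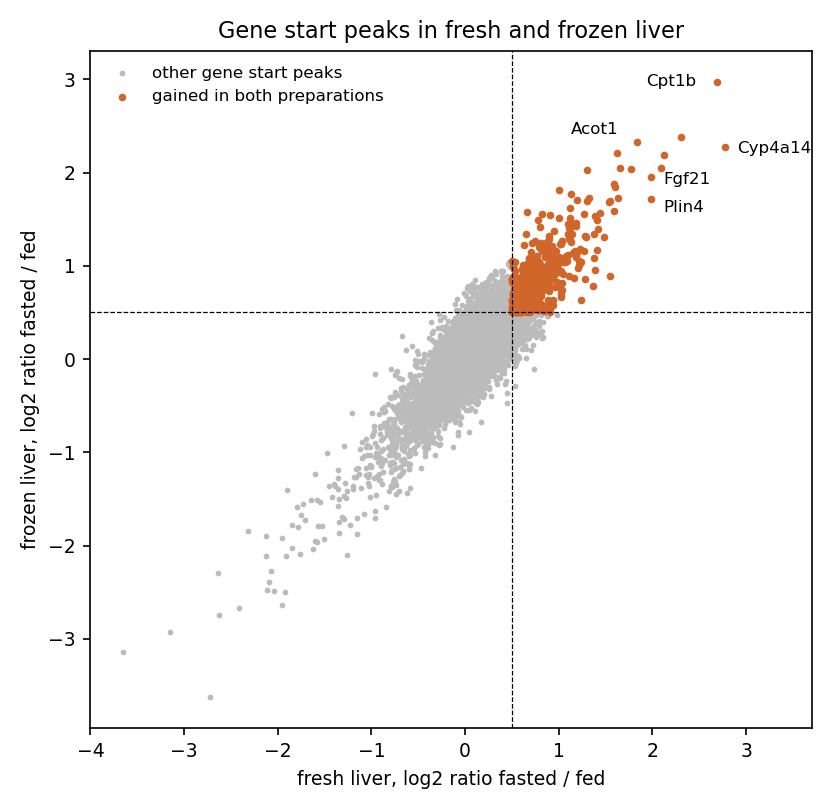
Log2 ratio of fasted to fed in fresh (horizontal) and frozen (vertical) liver for 18534 gene start peaks, with the 620 gained in both in orange and the threshold of 0.5 dashed. Both axes come from the same 6 mice. The labelled genes, Cpt1b, Cyp4a14, Fgf21, Acot1 and Plin4, were picked by hand and run from Plin4 at 1.98 and 1.71 to Cpt1b at 2.69 and 2.98. Other peaks as far out, such as those of Rrp36 and Apoa4, are not labelled.

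At the edge of the rule the last peaks inside were those of Gm38426 at 0.50004 in fresh liver, Rbp4 at 0.50016 in frozen liver and Tmem198 at 0.50029 in fresh liver, and the first outside were those of Gnao1, Pdgfc and 4632415L05Rik, whose smaller ratios were 0.49958, 0.49948 and 0.49905.

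The gained peaks lay off the core of the promoter more than gene start peaks as a whole. By distance this was not particular to them: 200 of the 347 lost peaks lay within 500 bp, beside 492 of the 620 gained. Of the 620, 214 (34.5%) were within 100 bp of the start, beside 49.3% of all gene start peaks, and 169 (27.3%) were more than 250 and at most 500 bp away, beside 17.9%. They lay upstream of the start in 49.0%, beside 61.3%. The authors' annotation called 66.0% of them promoter and 24.0% intron, beside 79.0% and 13.7%. At Pnpla2, Cidec and Cdkn1a the intronic peaks lay in the first intron. Among the 211 windows with an annotation other than promoter, 37.0% were listed as CpG island, beside 33.3% of all such gene start peaks. The nearest genes were protein coding for 582 (93.9%) and long noncoding for 36 (5.81%), beside 94.5% and 4.20% of all gene start peaks. For 200 of the 620 (32.3%) 2 or more RefSeq genes lay within 1 kb, so that the listed gene is 1 of several candidates. The windows are not independent, since 52 of them overlap another gained window.

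Genes listed for fatty acid oxidation and ketone production supplied some of the steepest gains. Of 94 gene start peaks at genes of this list 16 (17.0%) were gained, at 11 genes, and 1 was lost, beside 3.35% gained of all gene start peaks. None of the 11 encodes an enzyme of ketone synthesis. Fgf21 and Angptl4 are among them and are counted again under secreted proteins below. The median ratio over the 94 was 0.17 in fresh and 0.23 in frozen liver, not far above the 0.11 and 0.14 of all gene start peaks, so that the gains sat at a minority of the genes. The list, like the others below, was written with earlier results of these data known, and its counts were not tested.

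The highest ratios of all, taking the smaller of both preparations, were those of a peak 11 bp before the start of Cpt1b, the carnitine palmitoyltransferase form best known from muscle, which carries fatty acids towards mitochondria and is not on the list (chr15:89425773-89425973). It held 16.0, 13.3 and 20.4 normalized reads in fed and 117, 140.3 and 79.1 in fasted fresh liver, and 17.9, 14.3 and 18.4 in fed and 139, 164 and 116 in fasted frozen liver. A fed liver was almost closed there, and no fed library overlapped a fasted one. The ratio was 2.69 in fresh and 2.98 in frozen liver, and the next window, 225 bp before the start, had 2.12 and 2.19. Chkb, a choline kinase gene, lies within 1 kb, so that the gain cannot be given to Cpt1b alone.

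Cyp4a14, a fatty acid hydroxylase and textbook PPARA target, had gained peaks 553 and 62 bp before its start (chr4:115496594-115496794 and chr4:115496103-115496303). The farther one held 7.99, 7.97 and 9.86 normalized reads in fed and 64.5, 62.3 and 66.7 in fasted fresh liver, and 13.1, 11.1 and 14.9 in fed and 49.1, 78.5 and 73.4 in fasted frozen liver. Fed liver was nearly closed there, with a ratio of 2.77 and 2.28, and with a pseudocount of 5 in place of 1 the fresh ratio was 2.35. The nearer one had means of 50.6 ± 15.4 in fed and 158 ± 8.52 in fasted fresh liver, and 36.7 ± 4.41 in fed and 174 ± 7.76 in fasted frozen liver (mean ± SD, n = 3 libraries each, as for all such values below).

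Acot1, a thioesterase that frees fatty acids from coenzyme A, had 65.7, 46.5 and 49.9 normalized reads in fed and 195, 202 and 189.9 in fasted fresh liver, and 57.2, 31.9 and 47.3 in fed and 201, 234 and 263 in fasted frozen liver at its start (chr12:84009400-84009600). The fasted libraries stood clear of the fed ones, with a ratio of 1.84 in fresh and 2.33 in frozen liver, and a second peak 872 bp inside the gene had 0.50 and 1.05.

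The genes of the core pathway had smaller gains. Cpt1a, the liver form of the transferase that admits fatty acids to mitochondria, had 1 gained peak 818 bp before its start (chr19:3322383-3322583) with 47.9, 65.1 and 59.1 normalized reads in fed and 120.1, 104 and 106 in fasted fresh liver, and 60.8, 47.8 and 59.6 in fed and 137, 121 and 136 in fasted frozen liver. That is a side peak, with a ratio of 0.93 and 1.21; it was the only 1 of the 3 gene start peaks of Cpt1a to be gained. Hadha and Hadhb, which encode both subunits of the mitochondrial trifunctional protein and share a bidirectional promoter, had 3 gained peaks. Their ratios were 1.01 and 0.95 and 0.87 and 0.90 for the windows listed under Hadha and 0.51 and 0.57 for that under Hadhb. Etfdh, which passes electrons from fat oxidation to the respiratory chain, had 0.94 and 1.02. Pdk4, a kinase that holds back glucose oxidation, had 0.85 and 1.09 at 252 bp inside the gene and 0.61 and 0.84 at 312 bp before the start, where the level was among the highest of all gained peaks (267 ± 12.4 in fed and 409 ± 35.8 in fasted fresh liver, and 293 ± 39.0 in fed and 525 ± 22.6 in fasted frozen liver). Vnn1, a pantetheinase gene, had 0.77 and 1.10 and Eci2, an enoyl-CoA isomerase gene, 0.62 and 0.94.

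At genes of lipid droplets, lipolysis and fatty acid uptake 4 of 47 gene start peaks were gained (8.51%) and 3 lost, with medians of 0.15 and 0.23. Plin4, a coat protein of lipid droplets, held 47.0, 43.8 and 56.5 normalized reads in fed and 226, 186 and 179 in fasted fresh liver, and 82.2, 58.9 and 74.5 in fed and 276, 217 and 220.3 in fasted frozen liver at 105 bp before its start (chr17:56109807-56110007). The fed values and fasted values did not overlap, with a ratio of 1.98 and 1.71. The neighbouring family member Plin5, which ties droplets to mitochondria, had a stronger peak with a smaller gain, with means of 207 ± 3.42 in fed and 352 ± 18.4 in fasted fresh liver, and 214 ± 18.8 in fed and 445 ± 46.0 in fasted frozen liver and a ratio of 0.76 and 1.05 (chr17:56117470-56117670). Pnpla2, the gene of the first lipase of triglyceride breakdown, had 1.16 and 1.15 at 944 bp inside the gene, and Cidec, a protein of droplet fusion, 0.85 and 1.19 at 915 bp inside.

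Genes of secreted liver proteins had 8 gained peaks of 57 (14.0%) and 3 lost. Fgf21, the fasting hormone shown above by its promoter, had its main gained peak 8 bp before the start (chr7:45615398-45615598), with 34.6, 25.2 and 32.9 normalized reads in fed and 117, 139.7 and 119 in fasted fresh liver, and 65.5, 49.4 and 58.7 in fed and 220.2, 245 and 214 in fasted frozen liver. The ratio was 1.98 in fresh and 1.95 in frozen liver, while the level itself was higher in frozen liver in both feeding states. A second peak 988 bp before the start had 0.68 and 1.05.

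Angptl4, which inhibits lipoprotein lipase, showed a gain and a loss side by side. The peak 20 bp before its start (chr17:33781495-33781695) held 111, 50.5 and 84.8 normalized reads in fed and 199.5, 204 and 197 in fasted fresh liver, and 148, 51.0 and 103 in fed and 298, 277 and 316 in fasted frozen liver. The 6 fasted libraries were alike within each preparation, and the fed ones ranged widely, with the letter B low and the letter A high in both. Its ratio was 1.27 and 1.55. Only 122 bp further, the window on exon 1 (chr17:33781173-33781373) went the other way, with 142, 173 and 148 normalized reads in fed and 48.2, 50.4 and 36.2 in fasted fresh liver, and 155, 183 and 214 in fed and 44.6, 73.2 and 53.4 in fasted frozen liver, a ratio of -1.76 and -1.67.

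Gdf15, a stress hormone that acts on the brain to curb appetite, had means of 71.1 ± 6.73 in fed and 139 ± 28.6 in fasted fresh liver, and 67.7 ± 22.6 in fed and 177 ± 36.6 in fasted frozen liver and a ratio of 0.95 and 1.37. Tsku, a secreted protein of lipid metabolism, had 1.39 and 1.54 at 799 bp inside the gene and 0.78 and 1.21 at its start. Fst, the activin binder follistatin, had 0.66 and 0.81 and Igfbp2, a carrier of insulin-like growth factors, 0.59 and 0.66. Apoa4, an apolipoprotein gene named here after its values were seen, had 2 overlapping windows in the 5′ part of exon 1 with 2.09 and 2.04 and 1.60 and 1.84.

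The largest share of gained peaks was at known targets of the glucocorticoid receptor, 14 of 67 gene start peaks (20.9%) at 8 genes, with 3 lost and medians of 0.15 and 0.21. Cdkn1a, the cell cycle inhibitor p21, had the highest ratio of the list, taking the smaller of both preparations: its peak 49 bp before the start (chr17:29093620-29093820) held 88.7, 79.7 and 84.8 normalized reads in fed and 326, 259 and 288 in fasted fresh liver, and 109.6, 92.4 and 76.2 in fed and 413, 349 and 387 in fasted frozen liver. No fed library reached a fasted one there, and the ratio was 1.77 and 2.03. Peaks 955 and 702 bp inside the gene had 1.65 and 2.05 and 0.85 and 0.92, so that all 3 gene start peaks of Cdkn1a were gained, as was its only peak farther away (1780 bp from the start, 0.89 and 0.99).

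Mt2, a metal-binding protein gene induced by glucocorticoids and zinc, held 45.3, 53.1 and 147 normalized reads in fed and 259.9, 244 and 261 in fasted fresh liver, and 51.2, 66.9 and 203 in fed and 377, 342 and 349 in fasted frozen liver (chr8:94172612-94172812). The fed libraries with the letter C stood far above the letters A and B in both preparations, but stayed below every fasted library. Its ratio was 1.63 and 1.72. Gadd45b, a stress-induced growth arrest gene, had 0.87 and 0.75, and Pim3, a kinase gene, 0.51 and 0.60. Cebpb, a transcription factor of the fasting response, was the only gene with 4 gained peaks, out of 5 at its start, between 0.73 and 0.89 and 0.52 and 0.55.

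Genes of growth arrest had 6 gained peaks of 51 (11.8%) and 0 lost. Beside Cdkn1a and Gadd45b these were at Trp53inp2, an autophagy factor, with 0.88 and 0.89, and at Plk2, a stress-induced kinase, with 0.64 and 0.62. Genes of the dividing cell had 2 of 53, at the cyclins Ccnd3 with 0.69 and 0.65 and Ccne2 with 0.59 and 0.54.

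Targets of cAMP and CREB had 7 gained peaks of 45 (15.6%) and 2 lost, with medians of 0.21 and 0.20. Sik1, a kinase gene switched on by CREB that then restrains it, held 101, 87.6 and 71.6 normalized reads in fed and 215, 139.7 and 201 in fasted fresh liver, and 131, 127 and 102 in fed and 268, 186 and 298 in fasted frozen liver 516 bp before its start (chr17:31856220-31856420). Fasted libraries exceeded fed ones throughout, and the fasted libraries with the letter B were the lowest of the fasted in both preparations. Nr4a1, an orphan nuclear receptor and early response gene, held 143, 145 and 99.2 normalized reads in fed and 279, 167 and 287 in fasted fresh liver, and 216, 202 and 142 in fed and 398, 235 and 496 in fasted frozen liver (chr15:101266673-101266873). Here too the letter B was lowest among the fasted, and within each preparation every fasted library exceeded every fed one. Nr4a3, of the same family, had means of 61.3 ± 3.64 in fed and 124 ± 28.7 in fasted fresh liver, and 71.7 ± 7.08 in fed and 154 ± 30.5 in fasted frozen liver and a ratio of 1.01 and 1.09, again with B lowest. Per1, a clock gene with a CRE, had 0.66 and 0.83 and 0.51 and 0.51, with B lowest. Creb5, a factor of the CREB and ATF kind, had 0.59 and 0.57 and Id3, an inhibitor of DNA binding, 0.79 and 0.52, and neither followed that order in both preparations.

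Immediate early genes, which respond to a signal without new protein, had 6 gained peaks of 50 (12.0%) and 0 lost. Maff, a small partner of basic leucine zipper factors, held 28.4, 19.9 and 40.1 normalized reads in fed and 65.1, 67.0 and 71.2 in fasted fresh liver, and 29.8, 39.8 and 39.4 in fed and 81.9, 65.4 and 95.7 in fasted frozen liver at the CRE-bearing promoter printed above (chr15:79347366-79347566). The ratio was 1.17 and 1.13, and a second start of the gene had 1.21 and 0.97. Klf4 and Klf10, zinc finger factors, had 0.68 and 0.70 at the stronger Klf4 window and 0.72 and 0.76 at Klf10.

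The other CRE-bearing promoters printed above belonged to 3 genes outside these lists. Heca, the homolog of the fly gene headcase, had 0.92 and 0.93, and its level was 86.8 ± 24.1 in fed and 165 ± 9.48 in fasted fresh liver, and 163 ± 40.0 in fed and 309.9 ± 34.8 in fasted frozen liver. Dusp8, a phosphatase that shuts off stress kinases and is named here after its values were seen, held 61.2, 74.4 and 65.7 normalized reads in fed and 190.0, 171 and 177 in fasted fresh liver, and 88.2, 102 and 98.1 in fed and 289, 247 and 280.4 in fasted frozen liver (chr7:142095263-142095463). It had no overlap between fed and fasted libraries and a ratio of 1.41 and 1.49. At the Cycs promoter the ratio was 0.73 and 0.74, and the 3 respiratory chain genes of the list with gained peaks were Cox6b2 with 1.10 and 1.34, Ndufa2 with 1.04 and 0.82 and Ndufs4 with 0.53 and 0.75, 3 of 95 peaks (3.16%).

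**Figure D3:**
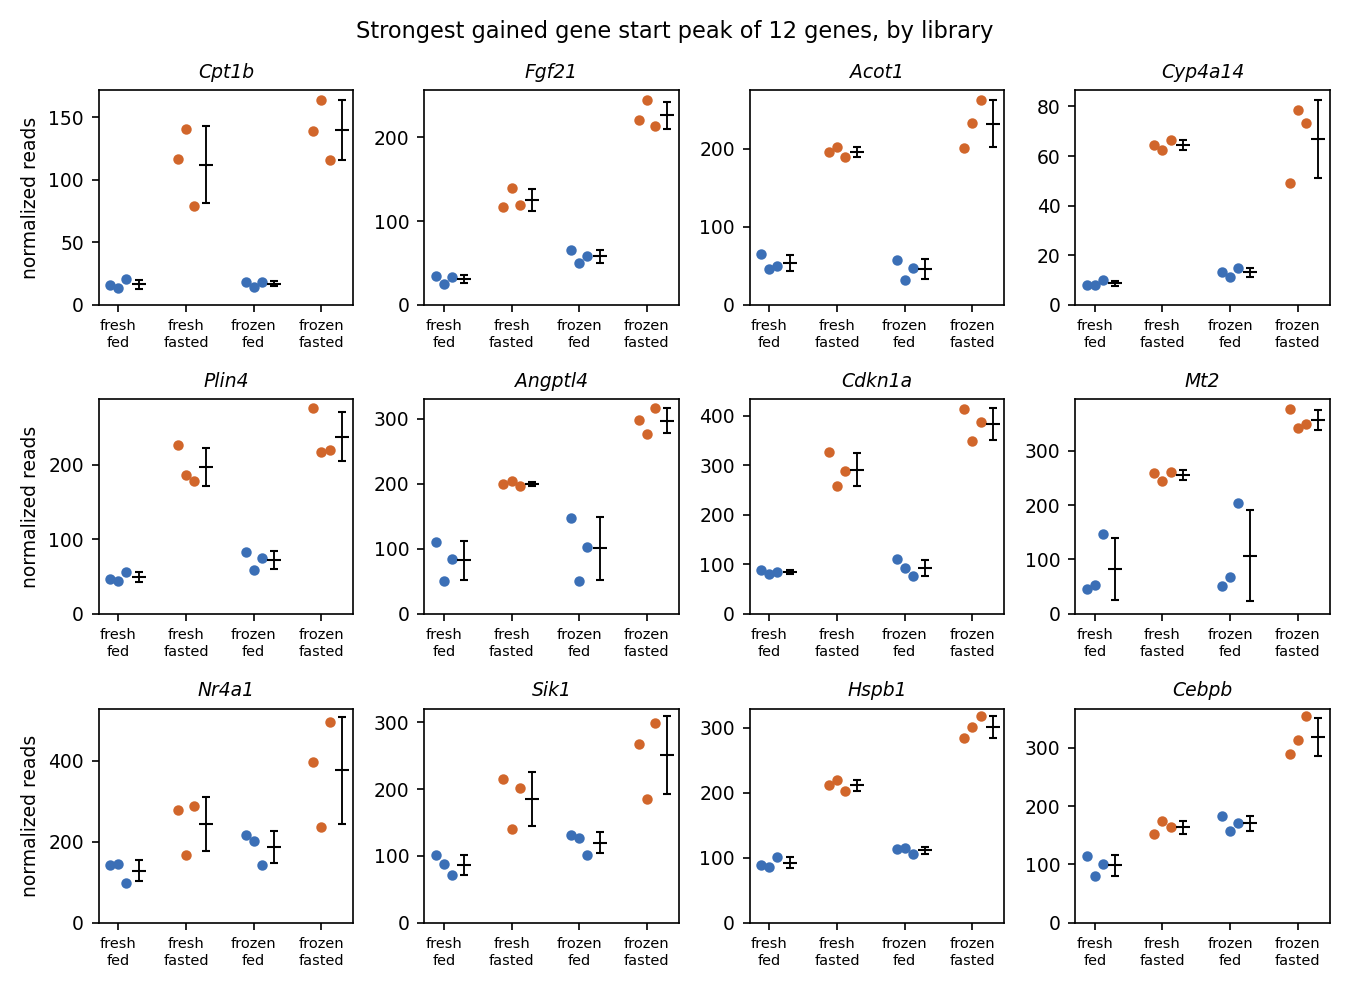
Normalized reads per library at the strongest gained start peak of 12 genes, fed in blue and fasted in orange, with the mean and SD of each group of 3 beside the points; every axis starts at 0. Fed and fasted points of the same preparation do not overlap in any of the 12 genes, and the Fgf21 and Cebpb levels are higher in frozen than in fresh liver.

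Smaller groups with gains were heat shock proteins and the amino acid stress response. Hspb1, a small heat shock protein, held 88.7, 86.3 and 102 normalized reads in fed and 212, 219.7 and 203 in fasted fresh liver, and 114, 115 and 105 in fed and 285, 302 and 318 in fasted frozen liver at its start (chr5:135887798-135887998). The libraries of a group differed little here, and the ratio was 1.19 and 1.43, with 0.97 and 1.16 in a window 247 bp before the start. Hspa8, the constitutive heat shock protein 70, had 1.03 and 0.70, which makes 3 of 35 gene start peaks for heat shock genes (8.57%). ATF4 targets had 4 of 39 (10.3%), at Fgf21, Gdf15 and Atf5, the last with 0.60 and 0.59. Genes of the unfolded protein response had 0 of 29, which in so small a list lies near the 3.35% of all gene start peaks. Clock genes had 3 of 49, those of Per1 and Usp2, a deubiquitinase gene with 0.84 and 0.55.

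Several lists had few gained peaks or none, beside 3.35% gained of all gene start peaks. At that share lists of 44 to 55 peaks would hold few, so 0 or 1 gained there lies near it. Genes of gluconeogenesis and glycogen had 0 of 47 gained and 1 lost, with medians of 0.09 and 0.08. Ribosomal proteins of the cytosol had 0 of 94 and those of mitochondria 0 of 89, proteasome subunits 0 of 44 and clustered histone genes 0 of 55. Numbered zinc finger genes had 9 of 447 (2.01%) with 3 lost, and microRNA genes 2 of 146 with 12 lost. Fat synthesis genes had 1 of 47 gained and 12 lost, with medians of -0.06 and -0.16, and the gained one was listed under Gpam, the acyltransferase that starts glycerolipid synthesis, with 1.03 and 1.27. RefSeq places the noncoding gene Gm31356 within 1 kb of that window. Cholesterol synthesis genes had 1 of 49 gained and 2 lost. The gained one was in intron 1 of Insig1, a sterol-controlled brake on cholesterol synthesis (chr5:28072003-28072203), with 107, 74.4 and 124 normalized reads in fed and 245, 219 and 249 in fasted fresh liver, and 126, 100.3 and 156 in fed and 259, 257 and 256 in fasted frozen liver. Its ratio was 1.22 and 1.01, while 11 of the 22 peaks of Insig1 beyond 1 kb were lost and 0 gained. Insulin and FOXO targets had 1 of 54, at Igfbp2, and hepatocyte identity genes 1 of 44, at Apoa2. Of the 620 gained peaks 97 were at a gene of any of the 30 lists.

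**Figure D4:**
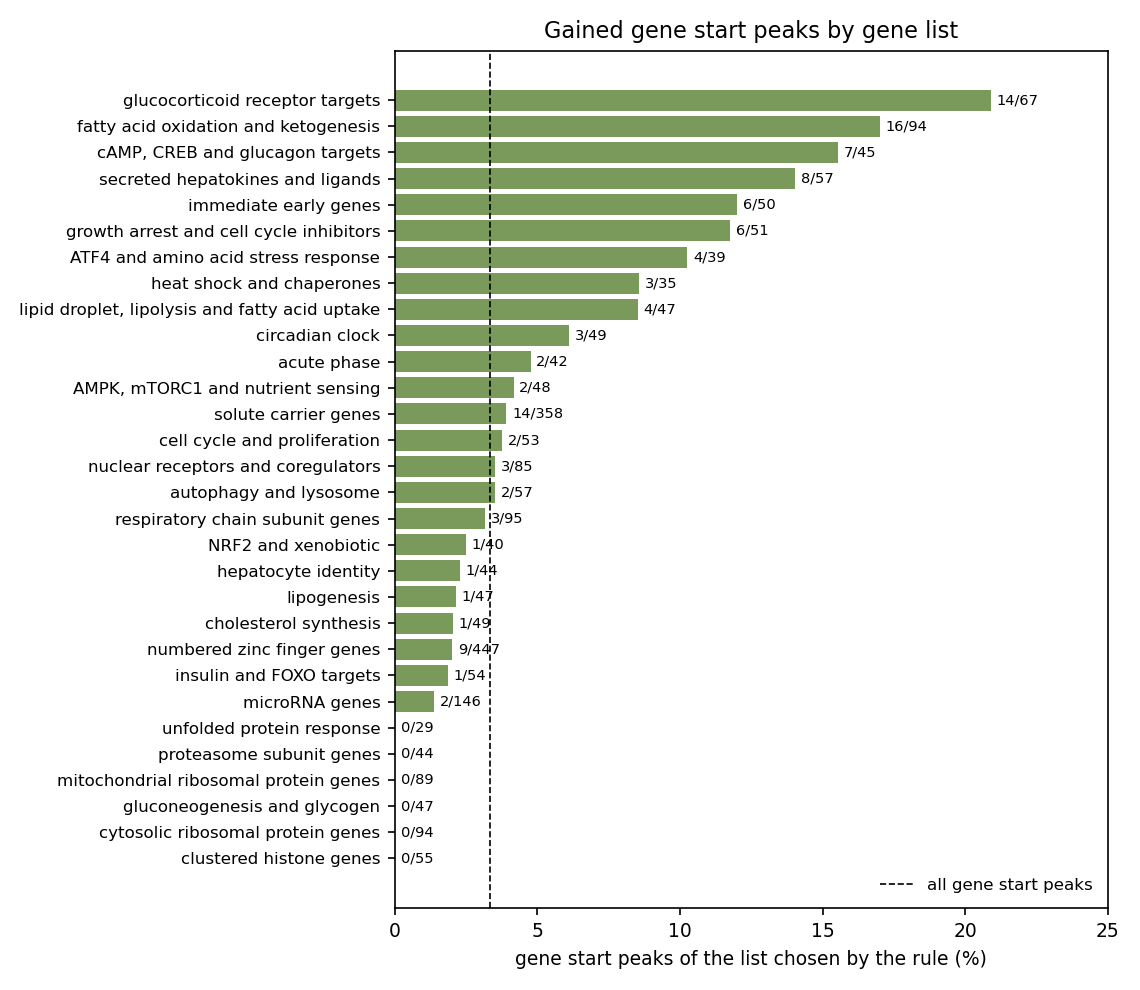
Share of the gene start peaks of each of 30 gene lists that were gained (bars, %), with gained and total peaks printed at the bar ends and the 3.35% of all gene start peaks as a dashed line. Glucocorticoid receptor targets (20.9%) and fatty acid oxidation (17.0%) are at the top, and 6 lists hold no gained peak.

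Counted by gene, 489 genes had 1 gained start peak, 59 had 2, Cdkn1a, Spon2 and As3mt had 3 and Cebpb had 4. Spon2, a secreted matrix protein, had 1.54 and 1.69 at its start, 0.82 and 1.55 upstream and 0.80 and 1.41 in intron 1. As3mt, an arsenic methyltransferase, had 0.90 and 1.28, 0.75 and 1.04 and 0.77 and 0.63. The same 552 genes had 601 further gene start peaks, of which 455 (75.7%) had ratios above 0 in both preparations, beside 64.1% of all gene start peaks that were not gained.

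Peaks beyond 1 kb were not chosen by the rule, although 1 of them, at Pnpla2, overlaps a gained window and is among those counted here. The 552 genes had 1474 peaks beyond 1 kb, at 337 of the genes, and 195 of those peaks were gained (13.2%) and 160 lost (10.9%). Of all 33996 peaks beyond 1 kb 6.32% were gained and 17.1% lost, and the median ratios were 0.06 and 0.11 for these genes against -0.04 and -0.05 for all. Of the 337 genes 103 had at least 1 gained peak beyond 1 kb, called distant here, and the share over all genes was not counted. Some distant peaks lay just past that limit, as at Acot1, at -1019 bp from the start. At Angptl4 6 of 9 distant peaks were gained and 0 lost, at Sik1 7 of 22 gained and 3 lost, and at Tsku 4 of 13 gained. At Fgf21 and Mt2 no distant peak was gained, of 1 and 2. These distant peaks come from the same libraries as the start peaks, and their shares were not tested.

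At 5 genes a gained and a lost start peak occurred together. Beside Angptl4, described above, the closest pair was at Itpkc, an inositol phosphate kinase, where windows 179 bp apart on exon 1 had 0.58 and 0.57 and -0.67 and -1.08. At F12, clotting factor XII, the gained window in intron 2 had 0.52 and 0.69 and the lost one upstream -0.80 and -1.11. At Dab2ip and Cacnb4 the pairs were at separate starts of the gene 114 and 118 kb apart: Dab2ip, a RAS regulator, had 1.48 and 1.30 at one start and -1.10 and -1.06 at the other, and Cacnb4, a calcium channel subunit, 0.80 and 0.85 and -0.63 and -0.88. That gained Dab2ip window varied widely, with 93.0, 137 and 249 normalized reads in fasted fresh and 91.9, 161 and 369 in fasted frozen liver. Its frozen fed library C, at 128, exceeded the frozen fasted library A.

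The strongest gained peaks by level were at Ptprs, Nr1i3, Pdk4, Chrna2 and Plin5. Ptprs, a receptor phosphatase gene, had means of 272 ± 12.5 in fed and 414 ± 25.2 in fasted fresh liver, and 313 ± 33.9 in fed and 533 ± 20.4 in fasted frozen liver and a ratio of 0.60 and 0.76. Nr1i3, the xenobiotic receptor CAR, had 271 ± 40.0 in fed and 388 ± 12.8 in fasted fresh liver, and 341 ± 18.7 in fed and 501 ± 16.8 in fasted frozen liver and 0.52 and 0.55, just past the threshold. Chrna2, an acetylcholine receptor subunit gene, had the largest gain of the 5, with 177, 167 and 214 normalized reads in fed and 388, 377 and 437 in fasted fresh liver, and 151, 164 and 235 in fed and 450.5, 506 and 549.7 in fasted frozen liver (chr14:66140742-66140942) and a ratio of 1.10 and 1.45. Other well-covered peaks with clear gains were at Noct, a nocturnin gene of the daily cycle, with 0.75 and 0.92, at Slc39a13, a zinc transporter, with 0.79 and 0.84, and at Tpm4, a tropomyosin, with 0.87 and 0.76. Rrp36, named here after its values were seen, had 2.30 and 2.39 in a window 744 bp before its start that also lies within 1 kb of Klhdc3. Tns1, an adhesion protein chosen likewise, had 43.5, 55.8 and 103 normalized reads in fed and 212, 206 and 193 in fasted fresh liver, and 50.0, 52.6 and 96.4 in fed and 191, 201 and 214 in fasted frozen liver, where the fed letter C was again highest in both preparations.

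That order of the fed libraries was common. The letter C was the highest fed library in both preparations at 255 of the 620 peaks (41.1%), beside 19.3% of all gene start peaks, and the letter B the lowest in both at 205 (33.1%), beside 19.4%. Among the fasted libraries B was lowest in both at 154 (24.8%), beside 22.1%, and C highest in both at 169 (27.3%), beside 24.8%. Fed B was the shallowest fed library in each preparation and fed C the deepest. Among the fasted libraries depth ran the other way, with B the deepest and C the shallowest in each preparation. The part of depth in these orders was not tested.

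Freezing of the tissue is the comparison the rule did not use, since it weighs both feeding states equally. It was tested over all 12 libraries by limma on log2(normalized reads + 1) with feeding state as a covariate, two-sided, with Benjamini-Hochberg adjustment over all 52530 peaks and a threshold of 0.05. Frozen liver had higher values at 164 (26.5%) of the 620 gained peaks and lower values at 122 (19.7%). Over all gene start peaks 37.6% passed the test as higher and 27.7% as lower. The gained peaks are weaker than the rest, and the part of their level in these shares was not tested. The median difference was 0.05 on the log2 scale, beside 0.06 for all gene start peaks and -0.05 for all peaks. After scaling every library to an equal median over gene start peaks, 138 of the 620 passed as higher and 149 as lower. Their median difference was then -0.02. Over all 18534 gene start peaks 5886 passed as higher and 6169 as lower after this scaling. The balance of higher and lower thus depends on the scale.

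Among the gained peaks the largest increases with freezing were at the noncoding gene C730002L08Rik, from 44.3 to 133 normalized reads, a log2 difference of 1.56 ± 0.12 (SE; adjusted p = 1.04e-08 by limma); at Taz, a cardiolipin remodelling gene, from 39.7 to 95.2 normalized reads, a log2 difference of 1.23 ± 0.14 (SE; adjusted p = 8.95e-07 by limma); and at Ctnnb1, which encodes beta-catenin, from 60.8 to 136 normalized reads, a log2 difference of 1.16 ± 0.10 (SE; adjusted p = 5.45e-08 by limma). Rbp4, the carrier of retinol, rose from 73.6 to 159.6 normalized reads, a log2 difference of 1.15 ± 0.14 (SE; adjusted p = 2.83e-06 by limma), and the Cycs promoter rose from 175 to 355 normalized reads, a log2 difference of 1.02 ± 0.07 (SE; adjusted p = 5.46e-09 by limma). The largest decreases were at Boll, a germ cell gene, from 71.7 to 33.7 normalized reads, a log2 difference of -1.21 ± 0.19 (SE; adjusted p = 3.2e-05 by limma), and at Slc10a7, a bile acid transporter relative, from 59.4 to 26.8 normalized reads, a log2 difference of -1.16 ± 0.20 (SE; adjusted p = 7.47e-05 by limma). Lower were also A930011G23Rik at -1.03 ± 0.17, Irx2 at -1.002 ± 0.177 and Bcl10 at -0.95 ± 0.19, with adjusted p = 5.38e-05, 0.000111 and 0.000402 by limma. Called differences of at least 1 were found at 8 of the 620 peaks that were higher and 4 that were lower. Among all 18534 gene start peaks there were 320 higher and 323 lower by as much, so such changes were not more common at the gained peaks.

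For the fasting genes the effect of freezing differed from peak to peak. Fgf21 rose from 78.0 to 142 normalized reads, a log2 difference of 0.87 ± 0.11 (SE; adjusted p = 2.44e-06 by limma). Cebpb rose at all 4 of its gained peaks, by between 0.33 ± 0.07 and 0.96 ± 0.10 (SE; the largest adjusted p = 0.000443 by limma). Of the 2 Per1 windows 1 rose, with 0.92 ± 0.09, and the other had -0.21 ± 0.12 (adjusted p = 1.31e-07 and 0.155 by limma). With fresh and frozen columns paired by letter as a block, that second window passed as lower (adjusted p = 0.0322 by limma). The Pdk4 window before the start rose with 0.24 ± 0.07 and that inside the gene fell with -0.22 ± 0.09 (adjusted p = 0.00499 and 0.0407 by limma). The second call was lost without any 1 of 8 of the 12 libraries (difference -0.24 to -0.16, adjusted p = 0.0502 to 0.0966 by limma). At the start of Acot1 the difference was -0.01 ± 0.14 and at that of Cpt1b 0.19 ± 0.17, neither past the threshold (adjusted p = 0.935 and 0.342 by limma).

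**Figure D5:**
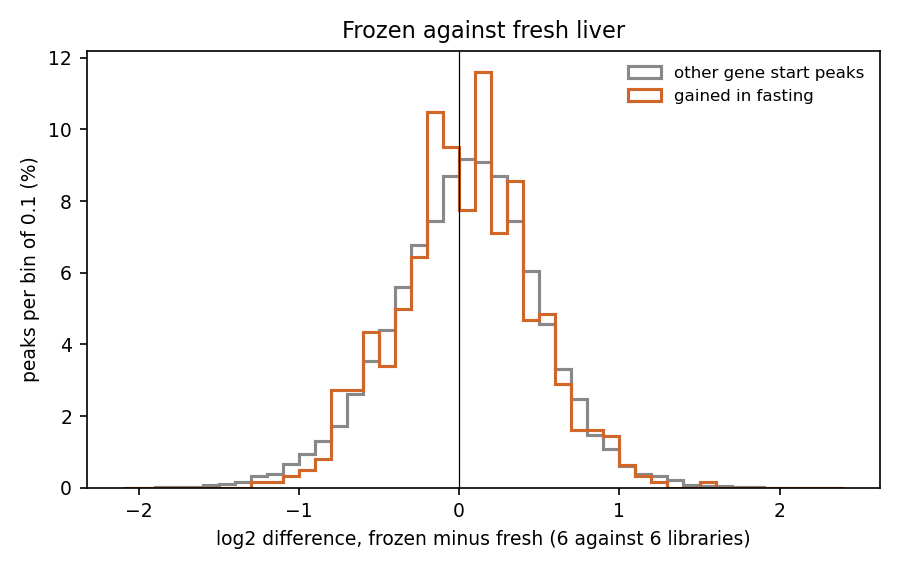
Distribution of the log2 difference of frozen minus fresh liver, 6 against 6 libraries, in bins of 0.1 for the 620 peaks gained in fasting (orange) and the other gene start peaks (grey). Both centre near 0, with medians of 0.05 and 0.06, and the gained peaks range from -1.21 to 1.56.

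The libraries held 3692152 to 14506057 reads in peaks, and the median gained peak between 33 reads, in the frozen fed library B, and 182 reads, in the fresh fasted library B. Of 9 hepatocyte markers 7 had gene start peaks, with means of 208 to 414 normalized reads at their highest peak, and Ttr and Tf had none. Macrophage, endothelial and lymphocyte markers had 0 of 7, 0 of 6 and 0 of 5 genes with a gene start peak. Of 6 stellate cell markers Reln had one at 91.5 normalized reads, and of 5 bile duct markers Sox9 had one at 98.4. No marker of any of these cells was among the gained peaks. The summed hepatocyte marker peaks ran from 2402 to 2490.3 normalized reads in fresh fed and from 2555 to 2774 in fresh fasted libraries, and from 3128 to 3327 in frozen fed and 3471 to 3914 in frozen fasted ones. They were thus higher in fasted libraries too, and their part in the gains was not tested. In such bulk nuclei a peak open in more cells and a peak more open in each cell cannot be told apart.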

How the data were processed

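Per the labels' protocols, each ATAC-seq reaction used about 25000 nuclei on beads, 30 min of transposition at 37 °C and 12 cycles of PCR. The tools named in the submitters' processing notes, with no role given, are BWA 0.7.5a-r405 with SAMtools, HOMER and DESeq2, and the build is mm10. How reads were shifted, deduplicated and called as peaks is not stated there. The authors deposited a signal for 12 libraries in 52530 windows of 200 bp. Within a column every value is a whole multiple of 1 step, within 1e-06 of a step, so the values look like reads over 1 factor per library, and depths take the step as 1 read. No count model was run. The authors' deposited table further holds a log2 fold change and an adjusted p-value for each preparation and, per the file headers, a peak score, a distance to the nearest start and an annotation. All per-library columns were used.

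Ratios used a pseudocount of 1 and no filter. Freezing was tested by limma 3.58.1 (R 4.3.3, trended prior) after a check on simulated data. The letters A to C match no mouse number. Fresh and frozen columns of a letter and feeding state deviated together (r from 0.329 to 0.640 in 6 pairs, highest other r = 0.0213), and the labels say that each mouse gave both. The libraries are therefore not all independent, and p-values measure their spread. Counting errors do not cover PCR copies.

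The regions, gene lists, markers and motifs were chosen with earlier results of these data known. Named by rule were the 20 gained genes of highest smaller ratio among well-covered peaks, up to 3 peaks per list, the 5 highest and 5 lowest for freezing, 3 peaks on each side of the threshold, the 5 of highest level, 5 genes with several gained peaks and 5 with a gained and a lost one. The other gained members of a list are named to complete it. Not all peaks so chosen are given. Promoter sequences are from RefSeq.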

Additional observations from a re-analysis of the deposited data

How the results depend on the processing

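With every library scaled to an equal median over gene start peaks, whose median ratios are 0.11 and 0.14 as deposited, 313 peaks were gained instead of 620, all of them among the 620. That all 620 kept ratios above 0 in both preparations follows from the threshold of 0.5, since the shift taken out is small beside it. Without the lowest 25% of peaks 340 were gained, and 44 of 340 tested were lower in frozen liver (126 higher). Of the 15950 gene start peaks tested there, 4082 were lower and 6723 higher. A pseudocount of 5 gave 538, means of log2 values 635 (606 of them shared) and a distance of at most 500 bp 492. Leaving out 1 library at a time gave 529 to 716 gained peaks, lowest without the fresh fed library B and highest without the fresh fed library C. For freezing it gave 145 to 181 of the gained peaks higher and 100 to 132 lower. Over all 18534 gene start peaks it gave 6666 to 6956 higher and 4776 to 5155 lower.

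With the column letter as a replicate block, the pairing of fresh and frozen columns, 205 gained peaks were higher and 154 lower in frozen liver. Over all 18534 gene start peaks 7553 were higher and 5704 lower with this block. Of the 24 freezing differences recomputed with the block 1 changed its call, that of the Per1 window given above. Of 2464 ratios of named peaks recomputed under these alternatives 2452 moved by less than the spread between replicates, 12 moved by more and 0 reversed. Most alternatives left out 1 of the 3 libraries of a group, which can hardly move a ratio by more than that spread. The ratios were also chosen to be at least 0.5, so these counts say little about robustness. Of 376 recomputed freezing differences of 24 windows 364 kept direction and call. The others were the Per1 window, the Pdk4 window inside the gene, which missed the threshold in 8, and the start of Acot1, which was not past the threshold and ranged from -0.084 to 0.116 with 1 library left out, above 0 without the fresh fed library A, the frozen fed library B or the frozen fasted library A; the cause was not tested. Depth limits the weak peaks, since the median gained peak held 33 reads in the frozen fed library B.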
